A study of Homo sapiens with 2 samples.

Results

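F-box proteins are the interchangeable substrate receptors of SCF ubiquitin ligases. The F-box binds the adaptor SKP1, which is held by the scaffold CUL1 together with the RING protein RBX1, and the remainder of the receptor chooses the substrate. The names give the substrate-binding part: FBXW proteins carry WD40 repeats, FBXL proteins leucine-rich repeats, and FBXO proteins other domains. Several receptors act on cell cycle regulators, which makes the family relevant to cells in which p53 has been switched on.

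The family was taken as every gene whose symbol begins with FBXO, FBXW or FBXL and a number, among probe sets annotated to 1 gene. This rule found 62 genes of the 19775 on the arrays, 18 of them FBXL, 34 FBXO and 10 FBXW. Of the 62, 57 encode proteins, 3 are transcribed pseudogenes (FBXL9P, FBXL21P and FBXW4P1) and 2 are long noncoding RNAs named after a neighbouring receptor gene (FBXL19-AS1 and FBXO38-DT). These 5 encode no receptor. Medians and counts past 1.5-fold on the deposited scale are also given without them. Other genes that fit the naming rule were not analysed here.

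The cells were DLD-1, an established line of human colon carcinoma, stably transfected with a tet-off construct that expresses wild-type p53 when tetracycline is absent. The p53 on cells had been kept for 9 h in medium without tetracycline, and the p53 off cells in medium with it. Each condition was measured on 1 Affymetrix array, so no difference below has a replicate check, a test or a standard error. Tetracycline was present in 1 condition only, so the drug and the transgene cannot be told apart. RNA was taken from the whole culture, so fewer cells of a kind and less RNA per cell cannot be told apart either.

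Values are linear signal intensities per probe set. Each gene is represented by its brightest probe set by mean signal, and signals of different probe sets are not compared as levels. Signals under 112.4, the median of all signals, were set to this floor before the log2 ratio of p53 on over p53 off was taken. A fold with 1 signal under the floor is a lower bound, written "at least", and a gene with both under it was not measured. Of 8 measured genes in a check list of p53-induced genes, all 8 were at least 2-fold higher with p53 on, among them CDKN1A (23349 with p53 on, 2723 with p53 off) and MDM2 (11792 with p53 on, 2047 with p53 off). The 10 measured probe sets of MDM2 ran from 0.070 to 3.81 in log2 ratio. A check list of 16 genes of G2 phase and mitosis had 12 members past 2-fold lower. The colon epithelial markers EPCAM, CDH1, KRT8, KRT18, KRT19, CDX2, VIL1 and CDH17 were measured, while CDX1 and GPA33 lay under the floor on both arrays. Of 23 markers of leukocytes, fibroblasts, endothelium and muscle, 12 were measured, and none of the 23 exceeded 248 with p53 on or 283 with p53 off. Their summed signals were 728 with p53 on and 531 with p53 off for leukocytes, 963 with p53 on and 593 with p53 off for fibroblasts, and 611 with p53 on and 233 with p53 off for endothelium. Their part in the results was not tested. The arrays also differed in RNA controls: for beta-actin, 3' signal divided by 5' signal came to 7.29 with p53 on and 1.37 with p53 off. The part of that difference in the ratios below was not tested.

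Of the 62 genes, 55 were measured, 47 of them above the floor on both arrays and 8 on 1 array. With p53 on, 17 of the 55 (30.9%) were at least 1.5-fold higher, where 25.9% of all 13915 measured genes were. At least 1.5-fold lower were 6 of the 55 (10.9%), where 25.9% of all measured genes were. The remaining 32 (58.2%) lay within 1.5-fold, against 48.2% of all measured genes. At the 2-fold threshold, 6 members were higher (10.9%, against 15.3% of all measured genes) and 3 were lower (5.45%, against 13.5%). The median log2 ratio of the members was 0.18, beside 0.0035 over all measured genes, and the members' ratios spread with an SD over genes of 0.91, beside 1.06. Among the 51 measured protein-coding members the median was 0.15. Of these, 14 passed 1.5-fold higher (27.5%) and 6 lower (11.8%), and 5 passed 2-fold higher and 3 lower. These counts hold relative to the median gene. Scaling to the hybridization spike-ins put the median measured gene at -0.80 and the median member at -0.62. On that scale 3 members were at least 1.5-fold higher, where 9.55% of all genes were, and 29 were at least 1.5-fold lower, where 58.7% were.

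**Figure D1:**
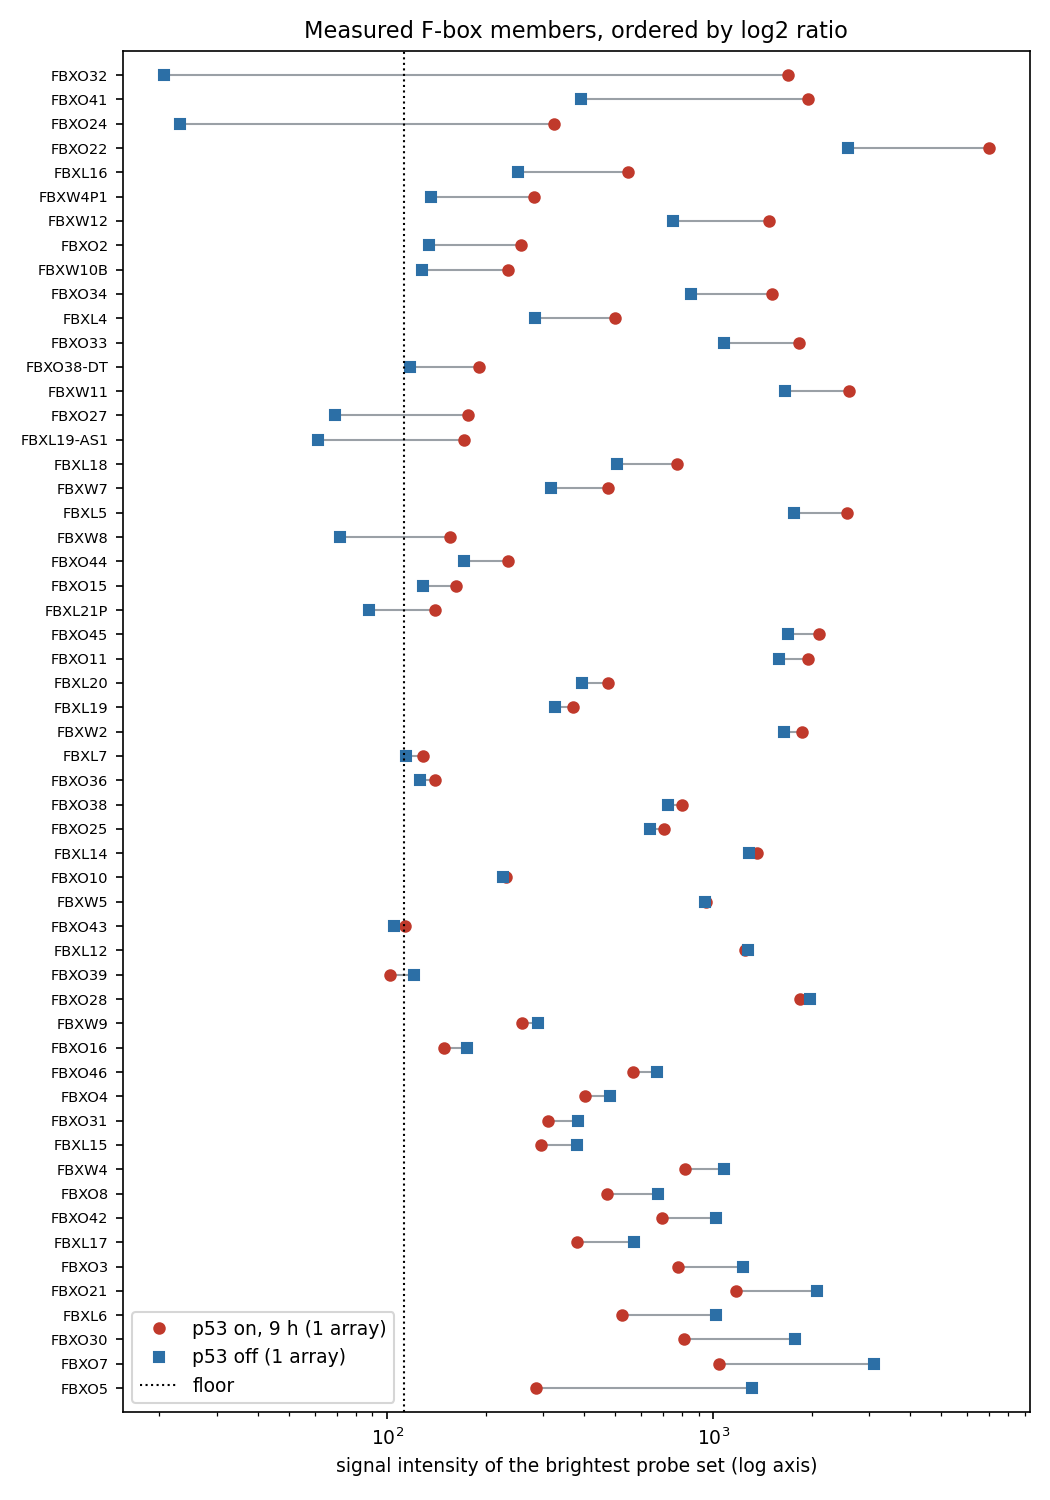
Signal intensity (log axis) of the brightest probe set of each of the 55 measured members, circles for the p53 on array and squares for the p53 off array, ordered from the largest log2 ratio at the top to the smallest at the bottom. The dotted line is the floor of 112.4; FBXO32 and FBXO24 were under it with p53 off, and FBXO5, FBXO7 and FBXO30 show the widest gaps in the other direction.

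FBXO32 had the largest ratio of the family. It encodes atrogin-1, a receptor known from muscle wasting, where FOXO factors induce it. Its brightest probe set read 1693 with p53 on and 20.7 with p53 off, at least 15.1-fold higher. A second probe set read 1032 with p53 on and 62.8 with p53 off, at least 9.18-fold higher. The next read 787 with p53 on and 84.5 with p53 off, a log2 ratio of at least 2.81. The last measured one was dim, with 136 in p53 on cells and 56.5 in p53 off cells, and at least 1.21-fold higher. FBXO32 thus had p53 off signals under the floor on every one of its 7 probe sets, and p53 on signals above it on 4. The 3 others were under the floor on both arrays, at 103, 93.1 and 13.6 with p53 on and 35.3, 11.2 and 23.7 with p53 off. FBXO30, which encodes MUSA1, another receptor known from muscle atrophy, differed in direction and was 2.20-fold lower, with 809 in p53 on cells and 1778 in p53 off cells on its single measured probe set. FBXO40, a muscle receptor for an insulin receptor substrate, was not measured. The 6 muscle markers MYOD1, MYOG, DES, MYH7, ACTN2 and CKM had signals of at most 116 with p53 on and 134 with p53 off, summing to 420 with p53 on and 397 with p53 off, and 2 of the 6 were measured.

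FBXO41, an F-box gene known mainly from neurons, was 4.96-fold higher, at 1955 with p53 on and 394 with p53 off. Its other measured probe set read 395 in p53 on cells and 21.9 in p53 off cells, at least 3.52-fold higher. FBXO22 encodes a receptor that is known to act on the demethylase KDM4A and on methylated p53. Its brightest probe set was 2.69-fold higher, with 6974 in p53 on cells and 2590.4 in p53 off cells. All 5 of its probe sets were higher with p53 on, but by unequal amounts, with log2 ratios of 1.43, 0.72, 0.29, 1.07 and at least 0.74 in order of mean signal. KDM4A itself had a log2 ratio of 0.019. FBXO24 read 325 with p53 on and 23.2 with p53 off, at least 2.89-fold higher, and 142 with p53 on and 110.0 with p53 off on a second probe set. FBXL16 was 2.18-fold higher on its single measured probe set, at 547 with p53 on and 251 with p53 off. The pseudogene FBXW4P1 completed the 6 members past 2-fold, at 281 with p53 on and 136 with p53 off. FBXW4, the gene it is named after, went the other way at a log2 ratio of -0.40.

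FBXO5 had the smallest ratio. It encodes EMI1, which blocks the anaphase-promoting complex during S and G2 phases and is itself a gene of proliferating cells. The brightest probe set read 286 with p53 on and 1317 with p53 off, 4.60-fold lower. The other read 53.7 with p53 on, under the floor, and 1208 with p53 off, at least 10.8-fold lower. FBXO43, its paralogue that acts in meiosis, was close to the floor with 113 in p53 on cells and 104 in p53 off cells. FBXO7, a receptor with roles in mitophagy and in the assembly of cyclin D complexes, was 2.99-fold lower at 1037 with p53 on and 3102 with p53 off. Its second measured probe set had the same direction, with 722 in p53 on cells and 2484 in p53 off cells, 3.44-fold lower. FBXO30, described above, was the third member past 2-fold lower.

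The promoter windows of 46 of the 62 genes were in the RefSeq table for GRCh38.p14, as 65 windows of 300 bases from 250 before to 50 after a transcript start. Each window was searched on both strands for CCAAT, for the cell cycle homology region (CHR, TTTGAA or TTCGAA) and for the p53 decamer, the repeated unit of p53 response elements. CCAAT and CHR are known as elements of promoters of genes expressed in G2 and mitosis. CCAAT occurred in 18 of the 65 windows (27.7%) and in 34.6% of all 35116 windows. CHR letters occurred in 6 (9.23%) and in 16.4% of all windows. The p53 decamer matched exactly in 1 of 65 (1.54%) and in 6.63% of all windows. The E2F letters TTTCCCGC, TTTCGCGC, TTTGCCGC and TTTGGCGC were searched too. They occurred in 1 of 65 (1.54%), the window of FBXO44, and in 3.31% of all windows. Neither FBXO5 window held them. Of the members past 2-fold higher, FBXO32, FBXO22, FBXL16 and FBXW4P1 had no window and were not searched. Windows are printed here for FBXO5, for FBXO41 and for FBXW11, the single member with a decamer match. Among members with a window, FBXO5 had the smallest ratio and FBXO41 the largest. The windows are given 5′ to 3′ on the strand of the gene, with matches in capitals. FBXO5 has 2 windows, and the one shown holds matches, chr6:152982992-152983291 (minus strand). FBXO41 lies at chr2:73284429-73284728 (minus strand) and FBXW11 at chr5:172006589-172006888 (minus strand).
FBXO5: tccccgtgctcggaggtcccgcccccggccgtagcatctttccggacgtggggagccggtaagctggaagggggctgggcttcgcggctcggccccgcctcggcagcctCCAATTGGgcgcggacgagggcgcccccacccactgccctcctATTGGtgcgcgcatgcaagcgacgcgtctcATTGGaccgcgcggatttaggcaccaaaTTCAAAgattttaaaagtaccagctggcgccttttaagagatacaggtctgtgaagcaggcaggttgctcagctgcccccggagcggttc
FBXO41: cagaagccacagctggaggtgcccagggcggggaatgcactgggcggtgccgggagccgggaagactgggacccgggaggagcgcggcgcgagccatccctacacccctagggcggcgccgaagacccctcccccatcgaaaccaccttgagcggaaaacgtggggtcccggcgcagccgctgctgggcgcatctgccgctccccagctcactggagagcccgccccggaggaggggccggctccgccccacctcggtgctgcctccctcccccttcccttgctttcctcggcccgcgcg
FBXW11: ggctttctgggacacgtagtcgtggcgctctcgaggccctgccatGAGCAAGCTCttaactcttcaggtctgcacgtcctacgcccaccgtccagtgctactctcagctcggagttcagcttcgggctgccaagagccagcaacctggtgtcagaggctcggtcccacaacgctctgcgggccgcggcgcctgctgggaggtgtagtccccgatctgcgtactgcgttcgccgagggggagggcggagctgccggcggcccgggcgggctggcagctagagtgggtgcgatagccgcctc

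The FBXO5 window held 4 CCAAT matches, 2 of them overlapping on opposite strands, followed by 1 CHR match. Windows with a CHR and at least 4 CCAAT matches made up 0.151% of all windows, and FBXO5 was the single member with one. The cut-off of 4 equals the count in the FBXO5 window, so this share does not measure how unusual that window is. A CHR beside any CCAAT was found in 6.38% of all windows and, among members, also in FBXL14 and FBXW7, with log2 ratios of 0.077 and 0.58. The FBXO41 window held none of the searched letters. A match is a description of the letters and was not tied to binding in these cells.

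The remaining receptors of cell cycle proteins differed little or disagreed between probe sets. FBXW7, a tumour suppressor whose substrates include cyclin E and MYC, was just under the 1.5-fold threshold on its brightest probe set, at 475 with p53 on and 317 with p53 off. Its 3 other measured probe sets were lower with p53 on, with log2 ratios of -0.083, -0.58 and, with p53 on under the floor, -0.33 or lower, so no direction is given for FBXW7. FBXW11, which encodes the beta-TrCP paralogue that targets beta-catenin and the NF-kB inhibitor, was 1.58-fold higher on 1 probe set (2605 with p53 on, 1652 with p53 off) and 1.53-fold lower on the other (206 with p53 on, 314 with p53 off). FBXO42, a receptor reported to act on p53, had log2 ratios of -0.55, -0.52 and 0.16. The cyclin D1 receptors FBXO4 and FBXO31 had log2 ratios of -0.26 and -0.31, with 0.12 on the second probe set of FBXO31. FBXW5, FBXL12 and FBXL7 lay between -0.035 and 0.17, and FBXW8 had a log2 ratio of at least 0.47. Together with FBXO22, FBXO5, FBXO7 and FBXO43 described above, the list of cell cycle and p53 receptors had 13 measured members. Of these, FBXO22 and FBXW11 passed 1.5-fold higher and FBXO5 and FBXO7 lower, 15.4% in each direction, against 25.9% of all measured genes.

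**Figure D2:**
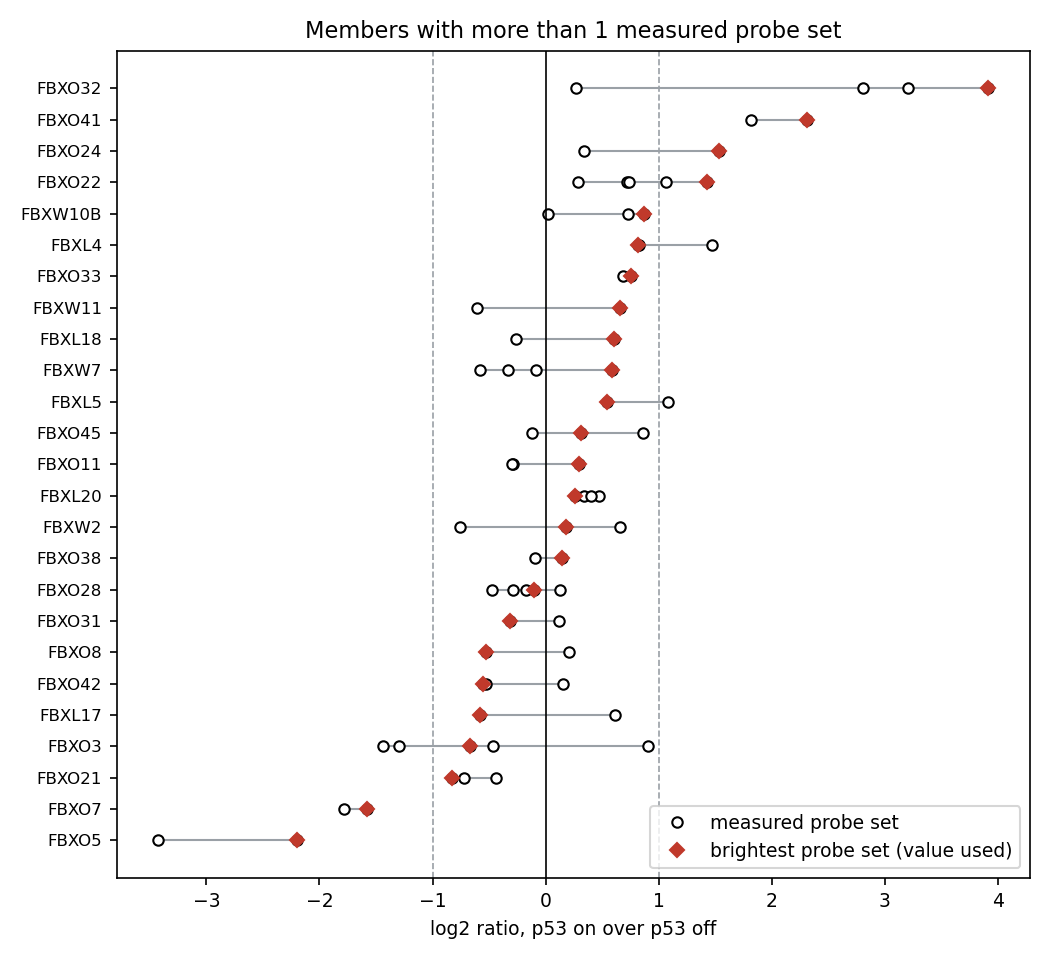
Log2 ratio of p53 on over p53 off for every measured probe set of the 25 members measured more than once, with diamonds for the brightest probe set and open circles for the others; dashed lines mark 2-fold. FBXO32, FBXO41, FBXO22, FBXO5 and FBXO7 keep 1 sign on all their probe sets, while FBXW7, FBXW11, FBXW2 and FBXO3 straddle 0. All measured probe sets of FBXO32 are under the floor with p53 off, which fixes their sign.

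Several probe sets for 1 gene were the only repeat measurement. It was available for 25 members, of which 12 (48.0%) had the same sign on all probe sets, where 58.6% of 6676 genes measured more than once did. In 9 of the 12 every measured probe set was higher with p53 on, namely FBXL4, FBXL5, FBXL20, FBXO22, FBXO24, FBXO32, FBXO33, FBXO41 and FBXW10B. FBXO5, FBXO7 and FBXO21 were lower on every one. The other 13 had probe sets of both signs. A probe set under the floor on 1 array is measured only through the other array, so its sign follows from the floor. This holds for all measured probe sets of FBXO32 and FBXO24, where the shared sign is no repeat check. It also holds for part of those of FBXL4, FBXO22, FBXO41, FBXW10B, FBXO5 and FBXO21. The median absolute log2 difference between a member's other probe sets and its brightest was 0.58 over 47 probe sets, beside 0.56 over all genes. Differences of members with 1 measured probe set, which number 30, have no such repeat.

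The receptors of iron and mitochondrial quality control were both higher on all their probe sets as deposited. FBXL5 senses iron and targets the iron regulatory protein IRP2. It read 2568 with p53 on and 1764 with p53 off, 1.46-fold higher. Its other probe set read 678 with p53 on and 320 with p53 off, 2.12-fold higher. FBXL4, a mitochondrial protein that restrains mitophagy, was 1.76-fold higher at 499 with p53 on and 284 with p53 off. Its other probe sets gave at least 2.77-fold and at least 1.77-fold. These directions depend on the scale of the arrays: on the spike-in scale the brightest probe set had a log2 ratio of -0.38 for FBXL5 and -0.11 for FBXL4. FBXL4 and FBXO7 as deposited differed in direction, although both are known from mitophagy.

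Receptors grouped here with FBXO2, which binds sugar chains of misfolded glycoproteins, were dim. FBXO2 read 256 with p53 on and 135 with p53 off, 1.90-fold higher, and FBXO44 read 234 with p53 on and 172 with p53 off, 1.36-fold higher. Both of these probe sets carry names that mark shared sequence, and the platform annotation derives them from the same transcript record, so FBXO2 and FBXO44 cannot be told apart here. The genes are neighbours, and their promoter windows overlap on opposite strands. FBXO27 was at least 1.58-fold higher at 177 with p53 on and 69.0 with p53 off. FBXO6 and FBXO17 were not measured.

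Of the other FBXO genes, FBXO34, measured by a single probe set, was 1.77-fold higher, with 1509 in p53 on cells and 854 in p53 off cells. FBXO33, a receptor for the RNA-binding protein YB-1, was 1.69-fold higher at 1827 with p53 on and 1080.3 with p53 off, and 1.61-fold higher on its second probe set. FBXO21, a receptor for the transcriptional inhibitor EID1, was lower on 3 of 3 probe sets, led by 1172.5 with p53 on and 2083 with p53 off, 1.78-fold lower. The brightest probe set of FBXO3 was 1.59-fold lower, at 776 with p53 on and 1235 with p53 off. A further 3 of its measured probe sets were lower, with log2 ratios of -1.43, -1.30 and, with p53 on under the floor, -0.47 or lower, and 1 was higher at 0.90. FBXO11, a receptor for BCL6, had log2 ratios of 0.30, -0.29 and, with p53 on under the floor, -0.30 or lower, and no settled direction. FBXO45, a receptor of synapse formation, had log2 ratios of 0.31, 0.86 and -0.12. FBXO28 had log2 ratios of -0.099, -0.18, -0.29 and 0.13 and, with p53 on under the floor, -0.48 or lower. FBXO8, FBXO10, FBXO15, FBXO16, FBXO25, FBXO36, FBXO38, FBXO39 and FBXO46 were within 1.5-fold on their brightest probe sets.

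FBXL6 was 1.95-fold lower, at 525 with p53 on and 1021 with p53 off on its single measured probe set. FBXL18 was 1.52-fold higher where it was brightest and had a log2 ratio of -0.27 on another probe set. FBXL17, which clears wrongly paired BTB proteins, had a log2 ratio of -0.58 on its brighter measured probe set and of at least 0.61 on the other. FBXL20 was higher on 4 of 4 as deposited, with log2 ratios of 0.26 to 0.47. FBXL14, FBXL15 and FBXL19 were within 1.5-fold, and FBXL8, FBXL13 and FBXL22 were not measured. Past 1.5-fold, 4 of the 14 measured FBXL symbols were higher (28.6%) and 1 lower (7.14%), where all measured genes had 25.9% each way, and their median was 0.22. Without FBXL19-AS1 and FBXL21P, 3 of 12 were higher, a share slightly below that of all measured genes. On the same basis 1 was lower, and the median was 0.18.

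Among FBXW genes, FBXW12 was 1.96-fold higher at 1476 with p53 on and 751 with p53 off, on a probe set whose name marks shared sequence. The other FBXW12 probe set, without such a name, was under the floor on both arrays, at 20.0 with p53 on and 99.9 with p53 off. FBXW10B was 1.83-fold higher at 234 with p53 on and 128 with p53 off, and its other measured probe sets gave at least 1.66-fold and at least 1.02-fold. FBXW2 had 3 measured probe sets with log2 ratios of 0.18, -0.76 and 0.66. FBXW9 had a log2 ratio of -0.17. The median over the 10 FBXW symbols was 0.53, and 4 of the 10 passed 1.5-fold higher and 0 lower. Without FBXW4P1, 3 of 9 were higher and 0 lower, with a median of 0.47. The median over the 31 measured FBXO symbols was 0.14, with 9 higher (29.0%) and 5 lower (16.1%). Without FBXO38-DT, 8 of 30 were higher (26.7%) and 5 lower (16.7%), with a median of 0.082. The share over all measured genes was 25.9% in each direction. The families were not tested against each other. Of the noncoding members, FBXL19-AS1 was at least 1.52-fold higher (171 with p53 on, 61.2 with p53 off). FBXO38-DT was 1.62-fold higher (191 with p53 on, 117 with p53 off). The receptor genes FBXL19 and FBXO38 had log2 ratios of 0.19 and 0.14. FBXL21P had a log2 ratio of at least 0.32, and FBXL9P was not measured.

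**Figure D3:**
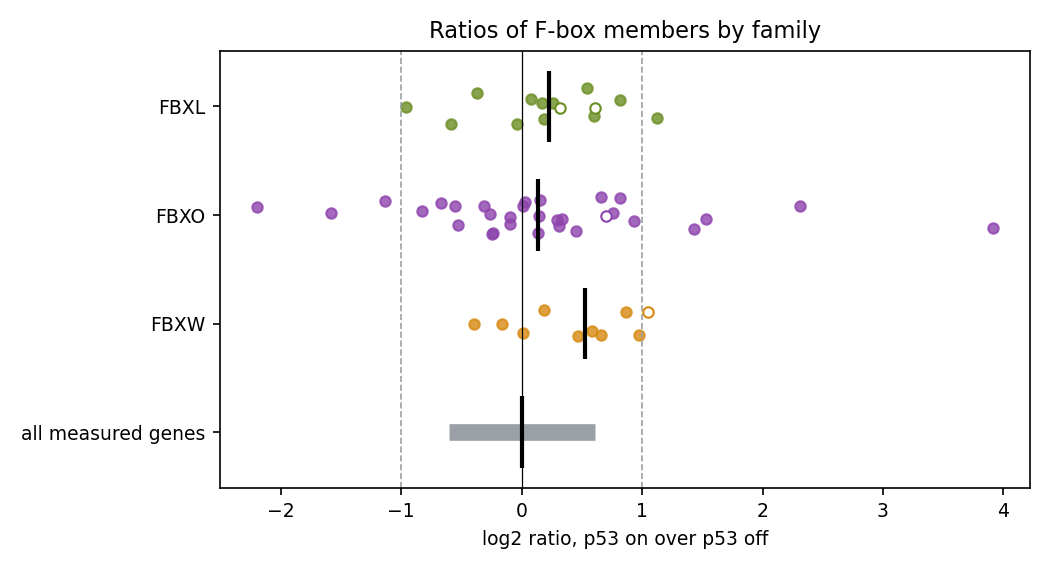
Log2 ratio of p53 on over p53 off for each measured member by family, filled points for protein-coding genes and open points for pseudogenes and noncoding RNAs, with vertical bars for the medians of 0.22 (FBXL), 0.14 (FBXO) and 0.53 (FBXW). Over protein-coding genes alone the medians were 0.18 (FBXL), 0.082 (FBXO) and 0.47 (FBXW). The grey bar spans the interquartile range of all measured genes, -0.61 to 0.61, and dashed lines mark 2-fold; vertical scatter within a row has no meaning.

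The invariant subunits of the ligase differed in direction. SKP1, the adaptor that every F-box protein binds, was 2.17-fold higher at 54275 with p53 on and 24981 with p53 off, with all 4 of its measured probe sets higher. CUL1, the scaffold, was within 1.5-fold at 1861 with p53 on and 2250.5 with p53 off, and had a log2 ratio of -0.75 on its other measured probe set. RBX1, the RING subunit that recruits the conjugating enzyme, was 2.28-fold lower at 2151 with p53 on and 4904 with p53 off. RNF7, its paralogue, was 2.69-fold lower at 1722 with p53 on and 4623 with p53 off, with all 4 of its measured probe sets lower.

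NEDD8, the small modifier that activates cullins, was 1.83-fold lower at 3211 with p53 on and 5885 with p53 off. Among the DCN1-like proteins that help attach it, DCUN1D5 was 3.14-fold lower at 2055 with p53 on and 6460.0 with p53 off, with a log2 ratio of 0.17 on its other measured probe set. DCUN1D2 was 1.96-fold lower, and DCUN1D1 was 2.38-fold higher at 3689 with p53 on and 1550.3 with p53 off, but its 6 measured probe sets ran from -0.50 to 1.25 on the log2 scale. Past 1.5-fold, the 9 measured neddylation genes counted 1 higher (11.1%) and 3 lower (33.3%), against 25.9% of all measured genes each way, and their median was -0.21.

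The COP9 signalosome removes NEDD8 from cullins, and CAND1 then exchanges one F-box module for another. Of 12 measured genes, 5 were at least 1.5-fold lower and 1 was higher, with a median of -0.41. CAND1 was 2.21-fold lower at 1863 with p53 on and 4110 with p53 off, and its 6 measured probe sets ran from -1.24 to 0.039. GPS1, a signalosome subunit, was 2.06-fold lower at 790.1 with p53 on and 1630 with p53 off. COPS5, the catalytic subunit, was 1.82-fold lower at 3790 with p53 on and 6891 with p53 off, and COPS7A was 1.72-fold lower. Of the conjugating enzymes that serve SCF ligases, UBE2R2 was 2.62-fold lower at 1059 with p53 on and 2778 with p53 off, CDC34 had a log2 ratio of 0.35 and UBE2G1 of 0.014. Over these 28 measured genes together, 3 were at least 1.5-fold higher (10.7%) and 11 lower (39.3%), where 25.9% of all measured genes passed in each direction, and their median was -0.28.

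The other cullins, scaffolds of ligases that do not use F-box proteins except for CUL7, had log2 ratios below 0 on all their brightest probe sets as deposited. CUL5 was 2.78-fold lower at 1366 with p53 on and 3796 with p53 off, with its other measured probe sets also lower. CUL3 was 2.13-fold lower at 4396 with p53 on and 9370 with p53 off. CUL7, which works with FBXW8, was 2.15-fold lower at 328 with p53 on and 706 with p53 off, with a log2 ratio of 0.50 on another probe set. CUL9 was 2.14-fold lower and CUL4B 1.52-fold lower. CUL2 and CUL4A were within 1.5-fold on these probe sets, at log2 ratios of -0.14 and -0.52, and their other measured probe sets gave 0.32 for CUL2 and -0.89 for CUL4A. The 7 had a median of -1.09, and 5 (71.4%) passed 1.5-fold lower, against 25.9% of all measured genes.

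**Figure D4:**
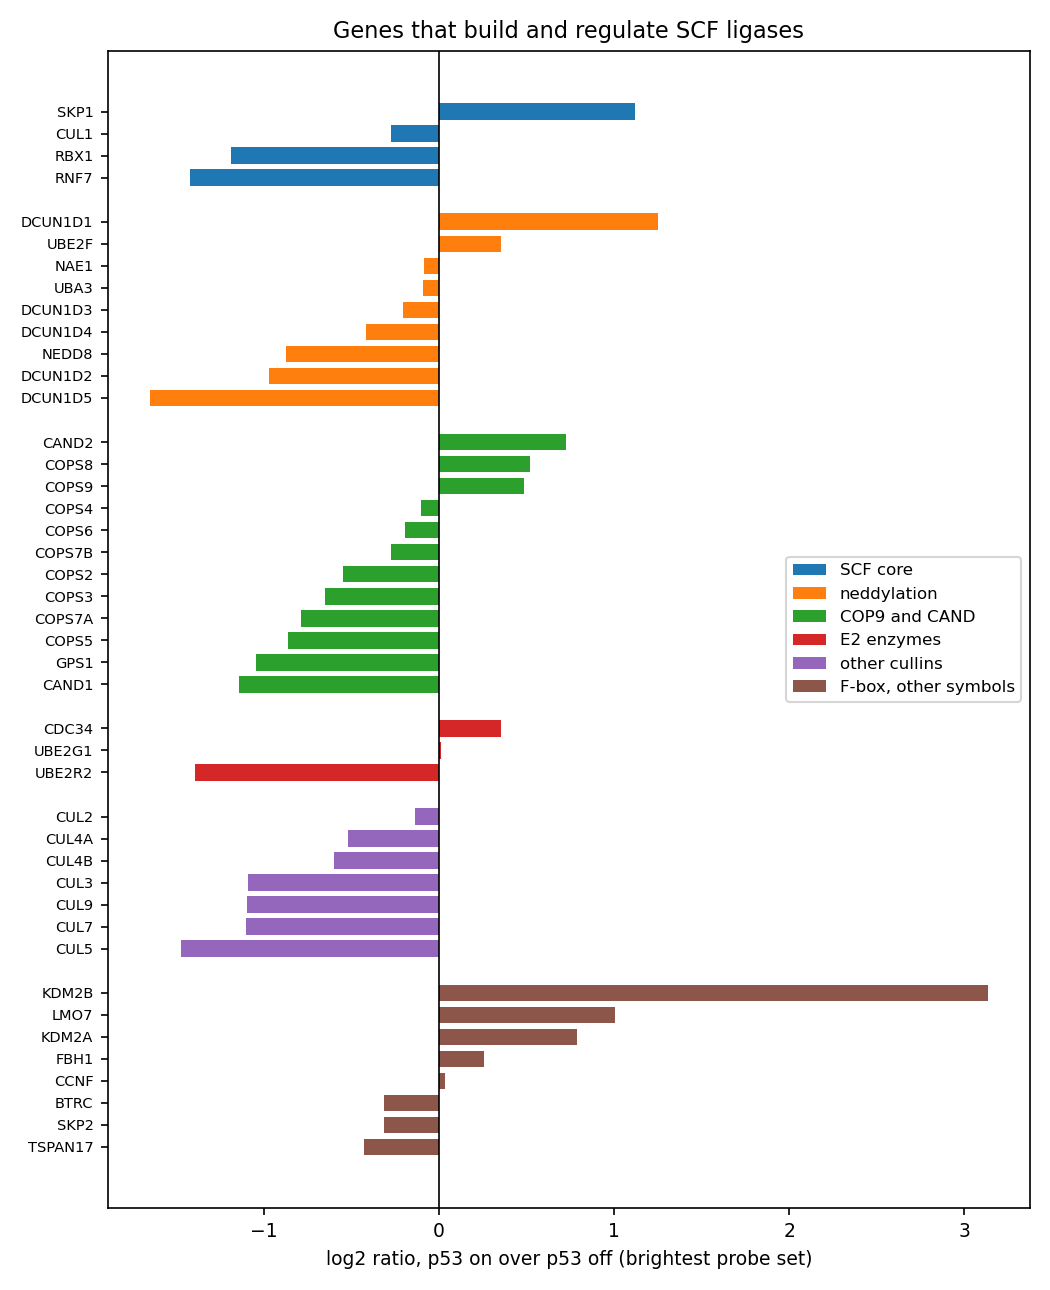
Log2 ratio of p53 on over p53 off (brightest probe set) for measured genes of the SCF core, the neddylation pathway, the COP9 signalosome and CAND proteins, the conjugating enzymes, the other cullins and F-box genes without an FBX symbol. SKP1 at 1.12 and KDM2B at 3.14 stand out upwards, and all 7 other cullins lie below 0.

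F-box proteins without an FBX symbol were taken as a separate list, of which 8 were measured. KDM2B, a histone demethylase with an F-box, was 8.79-fold higher, at 11445 with p53 on and 1302 with p53 off. This was its 1 measured probe set, and the name of that probe set marks shared sequence. LMO7 was just past 2-fold higher at 2655 with p53 on and 1325 with p53 off, with a log2 ratio of -0.69 on another probe set. KDM2A, the paralogue of KDM2B, was 1.73-fold higher where it was brightest and had a log2 ratio of -1.06 on another probe set. TSPAN17 had a log2 ratio of -0.43. Past 1.5-fold, 3 of the 8 were higher (37.5%, against 25.9% of all measured genes) and 0 lower. SKP2, BTRC and CCNF, receptors of cell cycle proteins named here after their values were seen, read -0.32, -0.31 and 0.036 on the log2 scale where each was brightest. Over their measured probe sets SKP2 ran from -1.27 to -0.32, BTRC from -0.41 to 0.84 and CCNF from 0.036 to 0.29.

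Genes that encode known SCF substrates differed in both directions. Past 1.5-fold, 8 of the 26 measured were higher (30.8%) and 11 lower (42.3%), against 25.9% of all measured genes each way, and their median was -0.084. CDKN1C, which encodes the inhibitor p57, was 11.0-fold higher at 1819 with p53 on and 165 with p53 off. Its 4 measured probe sets ran from 0.73 to 3.46 on the log2 scale. CDKN1A, listed above, was 8.57-fold higher. CDC6, a replication licensing factor, was 5.02-fold lower at 324 with p53 on and 1627 with p53 off. CCNE2, a cyclin E gene, was 3.67-fold lower at 616 with p53 on and 2258 with p53 off. These are transcript signals, and the amounts of the proteins were not measured.

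Across 10 other ways of processing the signals, apart from scaling to the spike-ins, the 9 members past 2-fold kept their direction where they had a value, but not all stayed past 2-fold. FBXW4P1 was past it in 7 of 11 settings, the reported one included, and had 0.66 to 0.86 in the others. FBXO24 was past it in 9 of 11, and FBXO22, FBXL16 and FBXO30 in 10 of 11. FBXO32 ran from 2.55 to 6.29, FBXO41 from 2.03 to 2.56 and FBXO22 from 0.85 to 1.57 on the log2 scale. FBXO5, which has no value without the probe sets whose names mark shared sequence, ran from -2.81 to -1.84, and FBXO7 from -1.68 to -1.34. On the spike-in scale FBXO32 had 3.46, FBXO41 1.39 and FBXO22 0.51, while FBXO5 had -3.12 and FBXO7 -2.50.

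**Figure D5:**
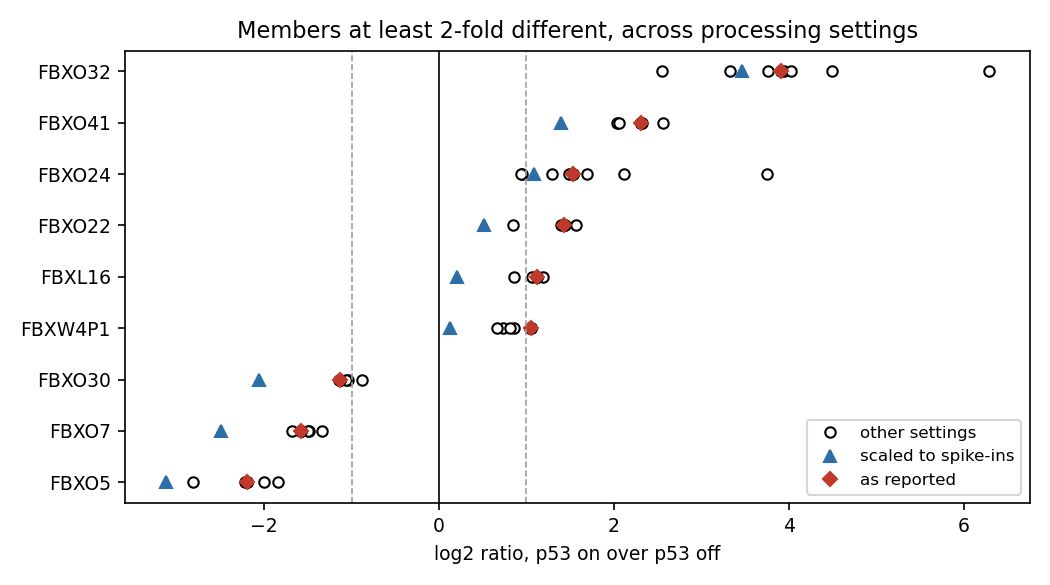
Log2 ratio of p53 on over p53 off for the 9 members at least 2-fold different, with diamonds for the values reported, open circles for other settings and triangles for scaling to the spike-ins; dashed lines mark 2-fold. FBXO32 and FBXO41 lie above 1 and FBXO5 and FBXO7 below -1 in every setting shown, whereas FBXL16 at 0.21 and FBXW4P1 at 0.13 came close to 0 when scaled to the spike-ins.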

How the data were processed

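Signals of 2 arrays, 1 per condition, were analysed. The values the authors deposited are linear signal intensities of probe sets; per the submitters' processing notes MAS5 was used. The sources used here give no version of it and no detection calls. On both arrays the mean after trimming 2% at each end was 500.1. Of 54675 probe sets, 62 were controls, 41091 had 1 gene symbol, 1801 several and 11721 were unnamed here; only those with 1 symbol were used. Entrez identifiers linked 41037 of them to current symbols in RefSeq GRCh38.p14. The transgene's own transcript is not reported here.

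The floor was the 50th percentile of signals that were not controls. Genes were counted by size, at 1.5-fold and 2-fold, since 1 array per condition allows no test. An array has no read depth, and the number of arrays limits the precision. The members, gene lists and thresholds were chosen with earlier results of these data known. Described one by one were members at least 2-fold different, those in the role lists and the extremes of each family, and other members at least 1.5-fold different were named; from other lists, all genes of lists under 8 and otherwise the 4 largest absolute log2 ratios. A few genes outside this rule are named for contrast and were picked with their values in view. The ratio code was tested on simulated data. Alternatives tried: the 40th or 60th percentile as floor, pseudocounts of 1 and of the floor, median centring, quantile normalization, loess (span 0.3), spike-in scaling, the mean of probe sets, no _x_at or _s_at probe sets and platform symbols; a count over protein-coding members was added after the data were seen. Promoter sequences are from RefSeq. The software was Python 3.11.15 with statsmodels 0.14.6 for loess, scipy 1.17.1, pandas 2.3.3, numpy 2.4.6 and, for plots, matplotlib 3.10.9.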

Additional observations from a re-analysis of the deposited data

Results flagged for a closer look

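Probe sets that enter no gene comparison also held signal. The probe set annotated to FBXW10B and FBXW10 together read 195.8 with p53 on and 68.2, under the floor, with p53 off, and was set aside because it names several genes. It drew attention as the shared probe set that was at least 1.5-fold higher with p53 on, by at least 1.74-fold. The 3 probe sets shared by FBXO16 and ZNF395 had log2 ratios of -1.04, -0.19 and 0.084, beside -0.24 for the probe set of FBXO16 alone. The control ratio of beta-actin, 3' over 5' signal, was 7.29 with p53 on and 1.37 with p53 off, and that of GAPDH 1.77 with p53 on and 0.974 with p53 off. Where the members' probe sets lie along their transcripts is not known here, so the part of this difference in their ratios was not tested.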

How the results depend on the processing

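Scaling to the 18 spike-in probe sets, which were a median of 1.89 times brighter with p53 on (1.47 to 2.59), moved all 8 counts and medians. The members' median was then -0.62, and past 1.5-fold 3 members were higher and 29 lower, while past 2-fold 3 were higher and 17 lower. Of all measured genes on that scale, 9.55% were higher and 58.7% lower past 1.5-fold, and 5.86% higher and 41.4% lower past 2-fold. The medians of the genes that build and regulate SCF ligases, of the other cullins and of the substrate genes were -1.19, -1.95 and -1.18. Under it FBXL18 (-0.32), FBXL4 (-0.11), FBXO33 (-0.16), FBXO34 (-0.099), FBXO38-DT (-0.22), FBXW10B (-0.049) and FBXW11 (-0.26) had the opposite sign to the one reported. So did members of the role lists reported within 1.5-fold: FBXL5 (-0.38), FBXO44 (-0.47), FBXW7 (-0.34), FBXL7 (-0.49), FBXW5 (-0.90) and FBXO43 (-0.36). This alternative divides all p53 on signals by 1 factor, and the floor was then taken anew from the scaled signals. Members with p53 off under the floor, such as FBXO32 (3.91 to 3.46), therefore shifted by less than FBXO22 (1.43 to 0.51). The scaling applies to the remaining members within 1.5-fold too, FBXL20 among them, but their signs on this scale were not listed. Neither scale was tied to the amount of RNA per cell, which was not measured. Under the other alternatives these counts and medians stayed within 1.5 times the reported count or within the interval of the median over its genes. No paired analysis was possible because each condition has 1 array. Dim members are limited by the floor: without one, at a pseudocount of 1, FBXO32 had a log2 ratio of 6.29 and FBXO24 of 3.75, against 3.91 and 1.53 with it. FBXL19-AS1 ran from 0.020 to 1.47 and FBXO27 from 0.068 to 1.35 over all settings but the spike-in scale. FBXW11 was within 1.5-fold, at 0.024, when its probe sets were averaged.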
